A study of Mus musculus with 12 samples.

Results

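The comparison described here sets 393P cells that carry the acetylation-deficient form of Zeb1 against 393P cells that carry wild-type Zeb1 (WT), across every gene in the deposited count table. 393P cells come from a lung tumour of a mouse, and their label calls them epithelial and not metastatic. The 3 libraries labelled deficient and the 3 labelled WT were taken from the 12 libraries of the series by their column names. The remaining 6 libraries, 3 with the acetylation-mimetic form and 3 with a GFP vector and no introduced Zeb1, entered the same fit and serve as points of comparison. All 4 lines were grown untreated in the same serum-containing medium. The terms deficient and mimetic are read here as forms of Zeb1 that cannot be, or that imitate being, acetylated, because the series title concerns acetylation of Zeb1 at K811. The count table shows no mutations, so the identity of each form rests on its label. Each form is a single line, so a difference between lines cannot be told apart from a difference caused by the Zeb1 form. The libraries are labelled as biological replicates, while the series design text speaks of 2 replicates per sample, and how separate the cultures were is not stated. The p-values therefore rest on how 3 libraries of each line varied, which may be partly technical.

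Zeb1, a transcription factor of the zinc-finger class, binds E-box sequences in promoters and, through corepressors such as CtBP and the NuRD complex, silences genes of epithelial cells. Among its known targets are E-cadherin and genes of cell junctions and apical-basal polarity, and its activity drives the epithelial-mesenchymal transition (EMT), in which epithelial cancer cells lose junctions and gain motility. Acetylation of a lysine can alter how such a protein binds its partners and how stable it is. RNA was measured by QuantSeq, a method that yields 1 tag per transcript from its 3' end, so that a level in CPM (counts scaled to the size of the library) does not grow with transcript length.

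Zeb1 RNA itself was measured first (chromosome 18, 5591860 to 5775467, plus strand, coordinates here and below from GENCODE M21 on GRCm38). Its level was 485, 470 and 496 CPM in the deficient libraries, against 245, 250 and 236 CPM in the WT libraries. The deficient libraries thus lay above the WT libraries without overlap, as the libraries of the 2 lines did, in either direction, in 61.6% of tested genes, and Zeb1 RNA was 1.98-fold higher in deficient cells (log2 fold change 0.99, SE 0.052, adjusted p = 2.07e-12, edgeR's quasi-likelihood test). It stood at 228 ± 12.2 CPM in mimetic cells and 31.2 ± 2.79 CPM in vector cells (SD, n = 3 each). Tags from the cell's own gene and from an introduced transcript that ends in the same 3' sequence cannot be told apart in these counts, and Zeb1 protein was not measured. The deficient line therefore held more Zeb1 RNA than the WT line beside every difference given below, and what part that level plays was not tested.

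Of 12208 genes in the table, 12027 passed the filter on low counts. Between deficient and WT, 6470 of them (53.8%) passed an adjusted p (Benjamini-Hochberg) of under 0.05, 3311 higher in deficient (27.5%) and 3159 lower (26.3%). The median log2 fold change of all tested genes was 0.01, and the median size among called genes was 0.37 on the log2 scale, or 1.29-fold. Larger changes were unevenly split. At least 2-fold changes were called in 875 genes that were higher (7.28%) and 181 that were lower (1.5%), together 8.78% of tested genes, and at least 4-fold changes in 284 that were higher and 30 that were lower. Among the 9046 genes with a mean of 10 CPM or more in the higher line, 262 were at least 2-fold higher and 75 at least 2-fold lower. Throughout, "rose", "fell", "higher" and "lower" without a p refer to genes called in this test, relative to WT. For scale, deficient cells differed from mimetic cells in 3299 genes (27.4%; 14.9% higher and 12.6% lower) and from vector cells in 7001 (58.2%; 28.4% higher and 29.8% lower). Mimetic cells differed from WT cells in 5398 genes. Of these, 576 were at least 2-fold higher and 99 at least 2-fold lower, and 201 and 12 at least 4-fold. The uneven split of large changes against WT was thus not particular to deficient. These comparisons share libraries, so their counts are not independent of each other.

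**Figure D1:**
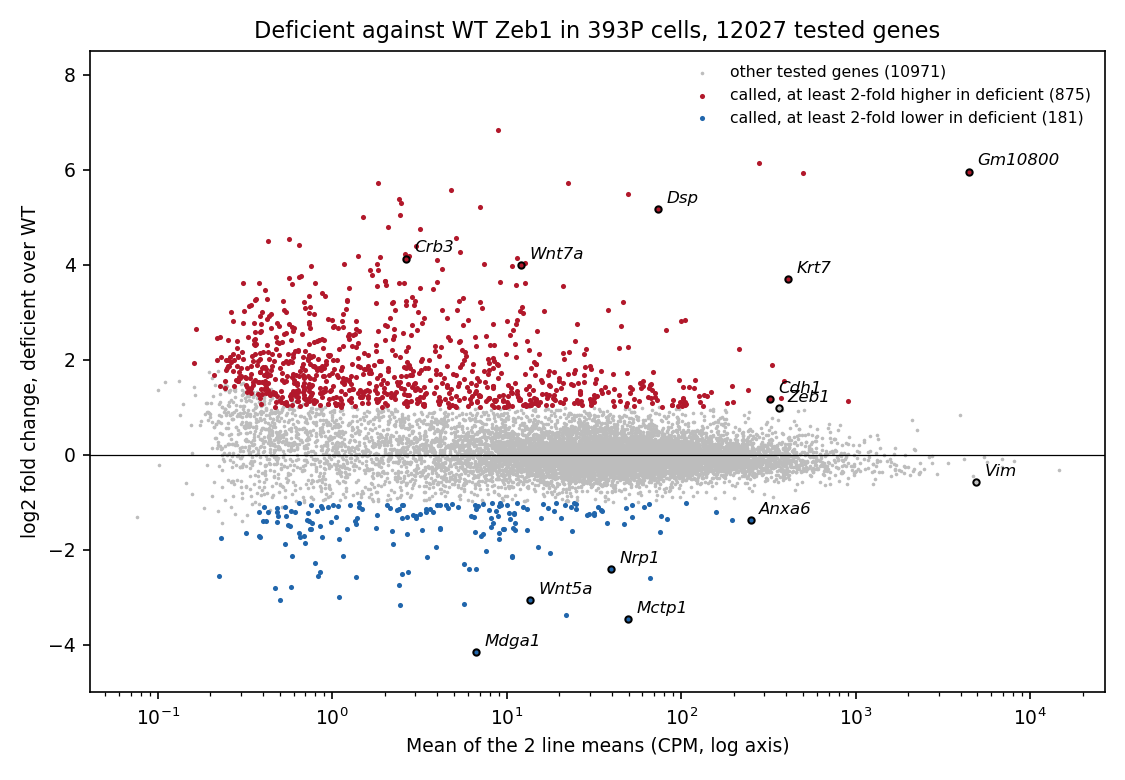
Each point is a tested gene, with the mean of the deficient and WT line means on the x axis (CPM, log axis) and the log2 fold change of deficient over WT on the y axis. Red points are the 875 genes called and at least 2-fold higher in deficient and blue points the 181 called and at least 2-fold lower. Named genes are circled.

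Library totals were 31010854 to 32950740 counts in deficient and 28402017 to 35773638 in WT. The first principal component of the 6 libraries held 77.2% of the variance and separated the lines. Libraries of a line differed by more than sampling noise, with a mean chi-square per gene of 2.96 to 4.33 among WT libraries and 5.25 between deficient replicates 1 and 2. Deficient replicate 3 stood further apart, at 17.1 and 23.6 from replicates 1 and 2. This mean gives abundant genes more weight. Among these are gene models with satellite repeats, described below, at 0.934, 0.574 and 1.65% of counts in deficient replicates 1 to 3. Without deficient replicate 3, 6097 genes were called, 790 of them at least 2-fold higher and 185 at least 2-fold lower. Markers of other cell types were at low levels. Summed over the 4 tested of 10 fibroblast markers, levels were 4.32 to 4.94 CPM in deficient and 2.71 to 3.2 CPM in WT. The 3 tested of 8 endothelial markers summed to 5.61 to 7.76 CPM in deficient and 0.849 to 1.53 CPM in WT, mostly from the receptor gene Kdr, with the defining marker Pecam1 at 0.259 ± 0.145 CPM in deficient against 0.134 ± 0.082 in WT. The 2 tested of 10 immune markers summed to 25.8 to 27.9 CPM in deficient and 26.8 to 28.3 CPM in WT, and the 3 tested of 6 smooth muscle markers to 1.15 to 1.48 CPM in deficient and 1.96 to 2.98 CPM in WT. In bulk RNA, fewer cells of a kind and less RNA per cell cannot be told apart.

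Genes of epithelial junctions and the cytokeratin skeleton were higher in deficient than in WT cells. Of 6 tested keratins on the list 6 rose, 6 of 8 desmosome genes rose and 0 fell, and 13 of 18 tight junction genes rose and 1 fell. Their median log2 fold changes were 0.93, 1.26 and 1.02, beside 0.01 over all tested genes. The tested genes are 6 of 12 keratins, 8 of 11 desmosome genes and 18 of 23 tight junction genes listed, and counts of list members refer to tested genes throughout. Each such count is to be read beside the 27.5% of all tested genes that were higher and the 26.3% that were lower. A count near these shares does not set a list apart. Adherens junction genes rose in 6 of 10 and fell in 1, with a lower median of 0.24. These lists hold genes that are known Zeb1 targets and were chosen with that in mind. Epithelial markers were present in both lines, as the label of 393P states, while Epcam, another defining marker, was not analysed here.

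E-cadherin (Cdh1, chromosome 8, 106603351 to 106670246, plus strand), the transmembrane protein that holds epithelial cells together, was at 461, 447 and 428 CPM in the deficient libraries, against 202, 199.6 and 194 CPM in the WT libraries. Its 2.24-fold higher level (log2 fold change 1.17, SE 0.048, adjusted p = 5.88e-14) separated the lines without overlap. Cdh1 was 287 ± 20.7 CPM in mimetic and 670.1 ± 17.6 CPM in vector cells, so deficient stood above mimetic (log2 fold change 0.64, adjusted p = 2.91e-09) and below vector (-0.59, adjusted p = 1.48e-09). Plakoglobin (Jup), which links cadherins to the cytoskeleton, was 136 ± 15.4 CPM in deficient against 62.7 ± 1.45 in WT (log2 fold change 1.11), and the nectin Nectin2, an adhesion receptor of the same junctions, 107 ± 8.07 CPM in deficient against 68.7 ± 1.8 in WT (0.64). The cadherin partner beta-catenin (Ctnnb1) differed less, at 1.15-fold (adjusted p = 0.000129). The single adherens junction gene that fell, named for that reason after its value was seen, was Nectin3, at -0.25 on the log2 scale.

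Krt7 (chromosome 15, 101411043 to 101430313, plus strand), a keratin of simple epithelia, was at 748, 743 and 795 CPM in the deficient libraries, against 60.1, 56.2 and 60.2 CPM in the WT libraries. That is 13-fold higher in deficient (log2 fold change 3.70, SE 0.053, adjusted p = 1.64e-21), with 337 ± 11.4 CPM in mimetic and 866 ± 52.1 CPM in vector cells. Krt19 rose 2.2-fold, Krt8 1.66-fold and its filament partner Krt18 1.44-fold, with adjusted p of 2.44e-13, 6.31e-11 and 2.27e-08. Krt80, named after its value was seen, was called by a small margin (adjusted p = 0.0456), so that 5 of the 6 were called with RLE scaling, DESeq2, limma-voom, the fit of 6 libraries, and without deficient replicate 1 or 3 or WT replicate 1 or 3. Krt13, a keratin outside the list, fell and is described with the largest falls. Summed over the 6 listed keratins, levels were 7240 to 7404 CPM in the deficient and 3978 to 4135 CPM in the WT libraries. Vector cells had 8373 to 9821 CPM of keratin RNA and mimetic cells 5283 to 5448 CPM, so the deficient libraries lay between mimetic and vector.

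Desmoplakin (Dsp, chromosome 13, 38151294 to 38198577, plus strand), which anchors keratin filaments to desmosomes, was at 145, 148 and 141 CPM in the deficient libraries, against 3.88, 4.27 and 3.77 CPM in the WT libraries. It was 36.1-fold higher in deficient (log2 fold change 5.17, SE 0.069, adjusted p = 8.2e-22), with 61.7 ± 2.03 CPM in mimetic and 111 ± 5.8 CPM in vector cells. The deficient level of Dsp exceeded that of vector as well (log2 fold change 0.38, adjusted p = 1.48e-06). The desmosomal plaque protein Pkp1 was 10.5 ± 1.88 CPM in deficient against 1.47 ± 0.43 in WT (7.17-fold), Perp, a tetraspan desmosome protein, 97.3 ± 2.19 CPM in deficient against 35.3 ± 2.61 in WT (2.75-fold), and envoplakin (Evpl) 13.7 ± 0.433 CPM in deficient against 6.56 ± 0.914 in WT (2.09-fold). Against vector, 4 of the 8 desmosome genes were higher in deficient and 2 lower, whereas of the keratins 1 was higher and 4 were lower.

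In tight junctions, the barrier that seals neighbouring cells, the lipolysis-stimulated receptor Lsr, a protein of tricellular contacts, was at 43.6, 39 and 42.1 CPM in the deficient libraries, against 7.11, 7.95 and 8.65 CPM in the WT libraries. The level of Lsr was 5.26-fold higher (log2 fold change 2.40, SE 0.086, adjusted p = 6.08e-15). The junction scaffold cingulin (Cgn) was 90.4 ± 4.24 CPM in deficient against 30.7 ± 0.842 in WT (2.95-fold), the adhesion molecules F11r and Cxadr were 2.49-fold and 2.45-fold higher, and Cldn6, a claudin of embryonic epithelia, was 613 ± 5.83 CPM in deficient against 322 ± 6.06 in WT (1.9-fold). The exception that fell, named after its value was seen, was the claudin Cldn9, with 0.423 ± 0.215 CPM in deficient against 1.88 ± 0.269 in WT (log2 fold change -2.14, adjusted p = 5.34e-05). Of the 18 genes, 11 were higher and 2 lower in deficient than in mimetic, and 4 were higher and 8 lower in deficient than in vector.

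Polarity genes, whose products set apart the apical and the basolateral sides of an epithelial cell, were split. Of 17 tested, 8 rose and 5 fell, and the median was 0.08. With any 1 library left out, 18 genes passed the filter in place of 17 and the median was 0.19 to 0.21. The rises were large in some members of the Crumbs and Par complexes. The 4 polarity genes that were not called belong to these complexes too, as does Pard6a, which fell. Crb3 (chromosome 17, 57059105 to 57065918, plus strand), the Crumbs protein of mammalian epithelia, was at 5.22, 4.69 and 5.1 CPM in the deficient libraries, against 0.381, 0.226 and 0.249 CPM in the WT libraries. These were low levels in WT, and Crb3 was 17.5-fold higher in deficient (log2 fold change 4.13, SE 0.277, adjusted p = 1.13e-10). Crb3 in deficient also exceeded that of mimetic (1.89 ± 0.375 CPM, adjusted p = 3.05e-05) and vector cells (2.77 ± 0.614 CPM, adjusted p = 0.000792). The atypical protein kinase C gene Prkcz, a kinase of the Par complex, was at 21.5, 21 and 22.9 CPM in the deficient libraries, against 1.49, 1.02 and 1.21 CPM in the WT libraries. It was 17.7-fold higher (log2 fold change 4.14, SE 0.144, adjusted p = 4.19e-15). Pard6b, a Par scaffold, was 4.46-fold and Patj, which binds Crumbs through Pals1, 3.41-fold higher. Those that fell, named after their values were seen, changed less: Scrib, Dlg1, Llgl1, Pard6a and Amot lay between -0.23 and -0.58 on the log2 scale.

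Zeb1 is known to bind the E-box CAGGTG, which reads CACCTG on the other strand. Promoter windows of RefSeq (GRCm38.p6, 250 bases before to 50 after each gene's start) were searched for it on both strands. A gene with several windows counted as holding the motif if any of them did. The motif was present in 22.6% of 27025 genes with a window, in 20.9% of the 9241 tested genes with a window, in 37.9% of the 620 genes called and at least 2-fold higher in deficient and in 24.6% of the 134 called and at least 2-fold lower. Among members of the keratin, desmosome, tight junction, adherens junction, polarity and epithelial regulator lists it was present in 28 of 52 genes with a window (53.8%), and among mesenchymal genes in 3 of 16 (18.8%). By epithelial list it ranged from 1 of 7 adherens junction genes (14.3%) to 2 of 2 desmosome genes. Only 2 desmosome genes and 4 keratins had a window, and Cdh1 had none. A match is a string of letters and does not show that Zeb1 binds there. The promoters of 6 epithelial genes that rose in deficient are given in lower case, 5′ to 3′ on the strand of the gene, with the motif in capitals, because they show how often it can recur within 1 window. They are Crb3 (chr17:57061951-57062250, plus strand, 4 matches, the first of 2 windows listed), Lsr (chr7:30973420-30973719, minus strand, 4 matches), Spint2 (chr7:29281928-29282227, minus strand, 3 matches), Patj (chr4:98395576-98395875, plus strand, 3 matches, the only 1 of its 3 windows with the motif), Krt7 (chr15:101412153-101412452, plus strand, 1 match) and Dsp (chr13:38151044-38151343, plus strand, 1 match).
Crb3: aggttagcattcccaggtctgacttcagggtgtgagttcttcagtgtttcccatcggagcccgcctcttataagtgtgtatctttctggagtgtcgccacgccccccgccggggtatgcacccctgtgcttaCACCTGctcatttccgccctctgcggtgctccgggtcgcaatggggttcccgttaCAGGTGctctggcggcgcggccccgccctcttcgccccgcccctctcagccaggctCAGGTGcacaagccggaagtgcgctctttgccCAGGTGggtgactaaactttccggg
Lsr: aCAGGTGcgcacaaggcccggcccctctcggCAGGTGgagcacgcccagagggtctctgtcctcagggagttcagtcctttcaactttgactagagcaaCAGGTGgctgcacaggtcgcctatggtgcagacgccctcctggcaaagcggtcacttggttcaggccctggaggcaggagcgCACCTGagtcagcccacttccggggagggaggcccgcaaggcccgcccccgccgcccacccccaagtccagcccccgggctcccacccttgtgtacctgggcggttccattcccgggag
Spint2: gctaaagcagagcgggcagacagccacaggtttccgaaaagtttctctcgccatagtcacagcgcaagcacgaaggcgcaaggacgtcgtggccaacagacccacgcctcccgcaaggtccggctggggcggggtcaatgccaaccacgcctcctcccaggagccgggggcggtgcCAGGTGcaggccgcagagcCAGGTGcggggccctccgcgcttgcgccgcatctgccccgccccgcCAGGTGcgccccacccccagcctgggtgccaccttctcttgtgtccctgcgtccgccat
Patj: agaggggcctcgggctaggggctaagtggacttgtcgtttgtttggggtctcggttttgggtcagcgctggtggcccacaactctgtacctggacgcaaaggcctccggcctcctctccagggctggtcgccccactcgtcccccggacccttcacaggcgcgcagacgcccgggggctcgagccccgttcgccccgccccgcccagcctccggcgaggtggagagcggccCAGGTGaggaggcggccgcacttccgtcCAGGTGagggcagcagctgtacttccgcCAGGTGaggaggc
Krt7: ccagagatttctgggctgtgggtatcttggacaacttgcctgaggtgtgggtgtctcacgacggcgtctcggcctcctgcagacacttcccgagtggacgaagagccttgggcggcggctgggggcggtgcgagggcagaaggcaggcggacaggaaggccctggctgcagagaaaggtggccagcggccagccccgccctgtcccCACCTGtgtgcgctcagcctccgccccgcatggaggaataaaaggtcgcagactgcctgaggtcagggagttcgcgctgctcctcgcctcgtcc
Dsp: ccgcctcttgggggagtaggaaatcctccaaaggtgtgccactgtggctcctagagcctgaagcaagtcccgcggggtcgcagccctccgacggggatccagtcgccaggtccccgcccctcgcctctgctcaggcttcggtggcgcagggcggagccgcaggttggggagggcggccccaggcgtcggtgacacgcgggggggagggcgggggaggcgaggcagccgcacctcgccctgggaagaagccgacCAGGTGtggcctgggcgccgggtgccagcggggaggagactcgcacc

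Of 30 listed regulators and surface proteins of epithelial cells, 18 were tested. Of these 12 rose, 0 fell and 6 were not called, with a median of 0.86. Spint2, an inhibitor of membrane serine proteases whose promoter holds 3 matches above, was at 83.4, 88 and 75.8 CPM in the deficient libraries, against 17.6, 17.9 and 15.6 CPM in the WT libraries. It rose 4.83-fold (log2 fold change 2.27, SE 0.069, adjusted p = 4.75e-16). The splicing factor Esrp2, which makes epithelial isoforms, rose 3.63-fold, the tetraspanin Tspan1 12.2-fold and the transcription factor Klf5 2.06-fold. In this list, 12 genes were higher and 2 lower in deficient than in mimetic, and 7 were higher and 8 lower in deficient than in vector.

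**Figure D2:**
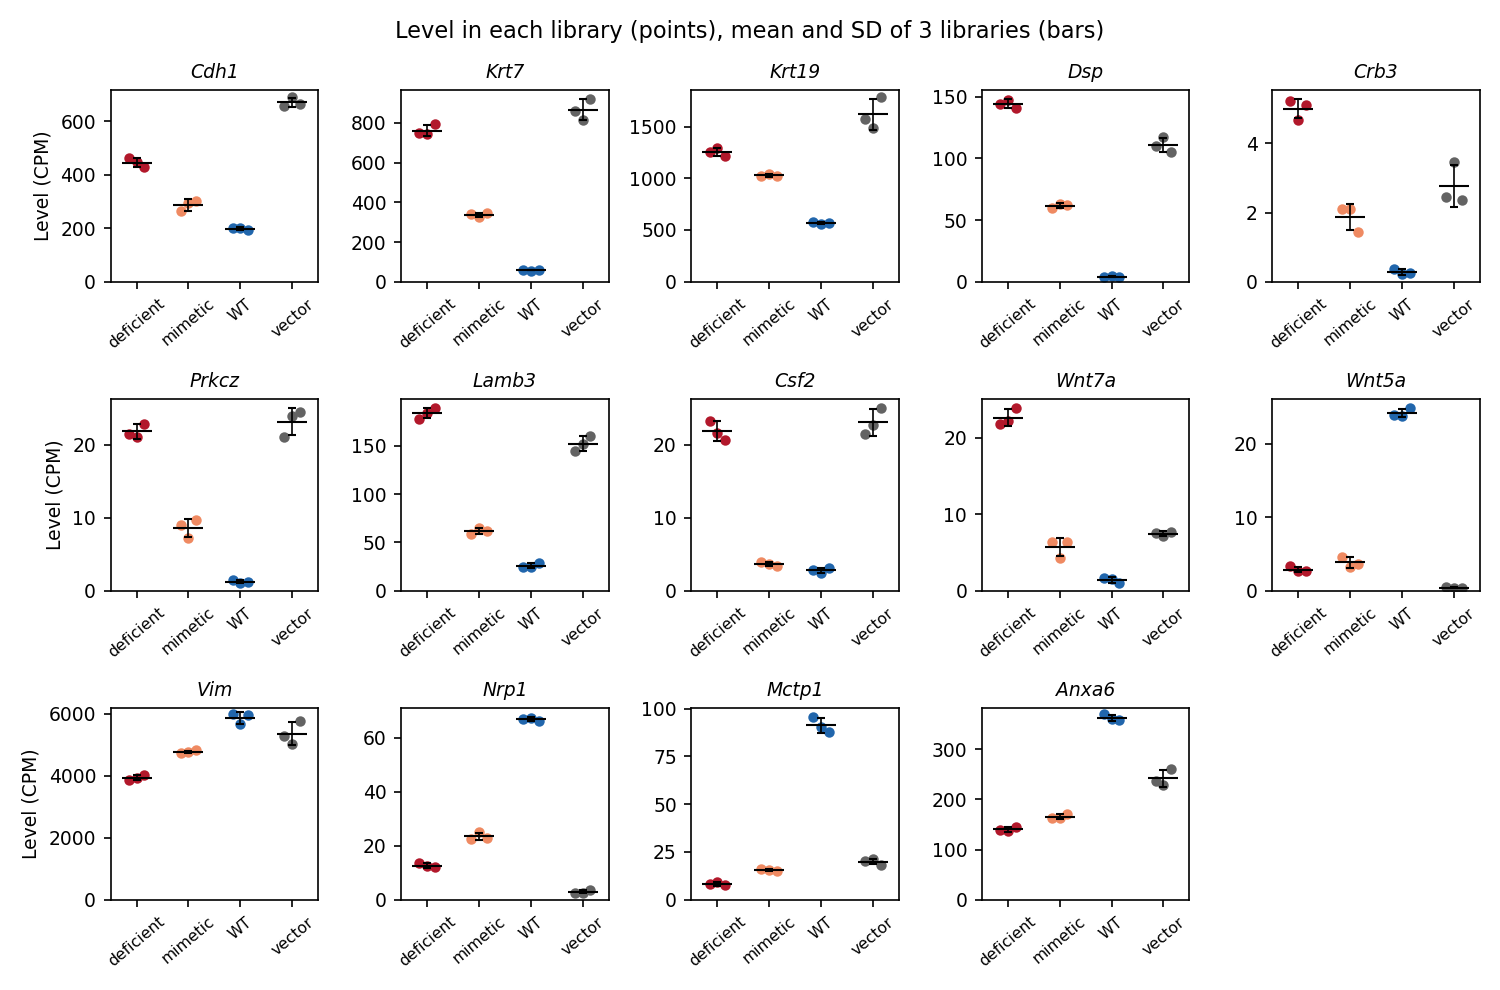
Level in CPM (y axis, from 0) of 14 named genes in each of the 12 libraries, with the mean and SD of the 3 libraries of a line. The 3 deficient points lie above the 3 WT points for Cdh1, Krt7, Krt19, Dsp, Crb3, Prkcz, Lamb3, Csf2 and Wnt7a, and below them for Wnt5a, Vim, Nrp1, Mctp1 and Anxa6.

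Mesenchymal genes moved in both directions. Of 21 tested, 7 were higher in deficient and 12 lower, with a median of -0.15. Against mimetic, 2 were higher in deficient and 6 lower. Against vector, 13 were higher in deficient and 5 lower, with a median of 0.5. Vimentin (Vim, chromosome 2, 13573927 to 13582826, plus strand), the intermediate filament of mesenchymal cells, was at 3862, 3936 and 4022 CPM in the deficient libraries, against 5995, 5654 and 5964 CPM in the WT libraries. Vim was 1.49-fold lower in deficient (log2 fold change -0.57, SE 0.046, adjusted p = 1.58e-09), and it was also below mimetic (4764 ± 46.7 CPM, adjusted p = 0.000119) and vector (5356 ± 371 CPM, adjusted p = 5.76e-08). Vim was thus abundant in every line, beside the epithelial markers above. N-cadherin (Cdh2), which replaces E-cadherin in EMT, was 38.1 ± 1.59 CPM in deficient against 75.7 ± 2.02 in WT (1.99-fold lower). The receptor kinase Axl was 1.53-fold lower and the calcium-binding protein S100a4 3.01-fold lower.

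The non-canonical WNT ligand Wnt5a (chromosome 14, 28504750 to 28527448, plus strand) was at 3.32, 2.64 and 2.69 CPM in the deficient libraries, against 23.9, 23.8 and 24.8 CPM in the WT libraries. That is 8.36-fold lower in deficient (log2 fold change -3.06, SE 0.131, adjusted p = 1.05e-13). Other mesenchymal genes went the opposite way. The neural adhesion molecule Ncam1 was 17.5 ± 1.37 CPM in deficient against 2.52 ± 0.506 in WT (7-fold higher), and Timp1, an inhibitor of matrix metalloproteinases, 107 ± 2.78 CPM in deficient against 60.5 ± 2.3 in WT (1.76-fold higher). The stretch of chromosome X that holds Timp1 was higher in deficient over its whole length, as described further on.

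Transcription factors of EMT showed no common direction. Of 18 tested, Zeb1 included, 7 were higher and 5 lower, and the median of 0.06 changed sign when deficient replicate 3 or WT replicate 2 was left out (-0.03 and -0.01). Snai2, a repressor that acts on the same E-boxes, was 17.3 ± 0.924 CPM in deficient against 11.2 ± 0.346 in WT (1.55-fold higher), and Foxq1, a forkhead factor, 13.1 ± 0.82 CPM in deficient against 7.12 ± 0.618 in WT (1.84-fold higher). The ETS factor Etv4 was 1.29-fold lower.

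Among the chromatin partners of Zeb1, no subunit of NuRD, the chromatin remodelling and deacetylase complex named in the series title, was called higher (0 of 15), and 6 were lower, with a median of -0.13, which was -0.06 and -0.07 without deficient replicates 1 and 2 and -0.08 without WT replicate 3. The deacetylase Hdac1 was 42.5, 35.5 and 39.3 CPM in the deficient libraries, against 56.7, 55.4 and 55.1 CPM in the WT libraries, 1.43-fold lower (adjusted p = 1.22e-06). The histone-binding subunits Rbbp7 and Rbbp4 were 1.31-fold and 1.27-fold lower and the helicase Chd3 1.3-fold lower. For the helicase Chd4, the test gave an adjusted p of 0.134 (621 ± 14.4 CPM in deficient against 650.2 ± 0.891 in WT, log2 fold change -0.066, SE 0.036). Among 16 other corepressors, 2 were higher and 5 lower, beside 27.5% and 26.3% of all tested genes. Rcor2, a scaffold of the CoREST complex, fell to 21.6 ± 1.23 CPM in deficient, against 48.1 ± 1.15 CPM in WT (2.23-fold), while its relatives Rcor1 and Rcor3 were 1.23-fold and 1.41-fold higher.

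Of 23 lysine acetyltransferases, sirtuins and other deacetylases, 3 were higher and 5 lower, and 15 were not called. Hdac6, a cytoplasmic deacetylase encoded on chromosome X, was 66.7 ± 3.63 CPM in deficient against 31.6 ± 0.586 in WT (2.11-fold higher), and Hdac5 31.1 ± 0.88 CPM in deficient against 52.6 ± 0.349 in WT (1.69-fold lower). The acetyltransferases Hat1, Kat2a and Kat6a were 1.37-fold, 1.36-fold and 1.4-fold lower. Heterochromatin and DNA methylation factors were higher in 5 of 28, lower in 9 and not called in 14. The maintenance methyltransferase Dnmt1, its partner Uhrf1 and the heterochromatin protein Cbx5 fell by log2 fold changes of -0.32, -0.34 and -0.32, whereas the X-linked Kdm6a and Suv39h1, a histone demethylase and a histone methyltransferase, were 2.06-fold and 1.5-fold higher.

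Of 23 integrin, laminin and basement membrane genes, 12 were higher and 3 lower, with a median of 0.25. Lamb3 (chromosome 1, 193207699 to 193343878, plus strand), a laminin chain of the epithelial basement membrane, was at 178, 184 and 189 CPM in the deficient libraries, against 24, 24.5 and 28.6 CPM in the WT libraries. Its libraries did not overlap between the lines, and it was 7.17-fold higher in deficient (log2 fold change 2.84, SE 0.063, adjusted p = 3.9e-18). The laminin receptor subunit Itgb4 was 2.79-fold and the collagen receptor subunit Itga2 1.87-fold higher, while Itga6, the partner of Itgb4, was 1.11-fold lower.

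Collagens and the enzymes that modify and crosslink them were higher in 13 of 24 and lower in 7, beside 27.5% and 26.3% of all tested genes. Their median was 0.20. Col7a1, the anchoring fibril collagen of epithelial basement membranes, was 38 ± 4.75 CPM in deficient against 13.2 ± 2.89 in WT (2.86-fold higher). Col6a1 was 2.87-fold higher, the prolyl hydroxylase P4ha2 2.92-fold and the crosslinking oxidase Loxl2 2.21-fold. Col4a1, a chain of basement membrane collagen, was 1.23-fold lower. Proteases that act outside the cell and their inhibitors were higher in 13 of 25 and lower in 5 (median 0.28). The metalloproteinase Adam8 was 18.5 ± 0.532 CPM in deficient against 3.66 ± 0.589 in WT (5.03-fold higher), the serine protease Htra1 269.8 ± 2.45 CPM in deficient against 124 ± 5.31 in WT (2.17-fold) and the membrane metalloproteinase Mmp14 102 ± 0.809 CPM in deficient against 58 ± 1.12 in WT (1.75-fold).

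WNT ligands went apart. Wnt7a (chromosome 6, 91363981 to 91411363, minus strand), a secreted WNT ligand, was at 21.9, 22.2 and 23.9 CPM in the deficient libraries, against 1.63, 1.58 and 0.997 CPM in the WT libraries. It was 16-fold higher in deficient (SE 0.16 on the log2 scale, adjusted p = 3.4e-14), and it was also above mimetic (5.68 ± 1.17 CPM, adjusted p = 6.35e-10) and vector (7.48 ± 0.272 CPM, adjusted p = 1.19e-09). Wnt7b was 1.84-fold and the receptor Fzd6 4.33-fold higher, while Wnt5a fell as given above. Of 23 WNT genes in all, 10 were higher and 4 lower, with a median of 0.21.

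Genes of TGF-beta and BMP signalling, a pathway that induces EMT, were higher in 16 of 32 and lower in 5, beside 27.5% and 26.3% of all tested genes, with a median of 0.24 that was 0.11 without deficient replicate 3. The ligand Bmp7, known to oppose TGF-beta in EMT, was 54.7 ± 6.24 CPM in deficient against 21.9 ± 0.735 in WT (2.49-fold higher). The feedback inhibitors Skil and Smad7 were 1.91-fold and 1.7-fold higher and the receptor Tgfbr2 1.27-fold. Receptor tyrosine kinases and their ligands and feedback genes were higher in 14 of 31 and lower in 10, with a median of 0.12 that was 0.07 without deficient replicate 1 or 2 and 0.18 without deficient replicate 3. The collagen receptor Ddr2 was 5.26 ± 0.335 CPM in deficient against 0.845 ± 0.0242 in WT (6.2-fold higher), and the EGF receptor ligand Areg and the feedback inhibitor Errfi1 were 1.61-fold and 1.56-fold higher. Axl, given with the mesenchymal genes, is on this list too and was among the 10 that fell (log2 fold change -0.61).

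Tyrosine phosphatases were higher in 11 of 23 and lower in 7 (median 0.15). Ptpn13, a phosphatase with a PDZ domain that sits at the cell cortex, was at 177, 174 and 174 CPM in the deficient libraries, against 25.5, 24.4 and 24.4 CPM in the WT libraries. It was 7.07-fold higher in deficient (log2 fold change 2.82, SE 0.067, adjusted p = 8.31e-18), with 131 ± 6.22 CPM in mimetic and 2.24 ± 0.541 CPM in vector cells. WT thus stood between vector and the other two Zeb1 lines. Ptprk, a receptor phosphatase of cell contacts, was 1.68-fold higher. Genes of neural adhesion and axon guidance were higher in 17 of 32 and lower in 8 (median 0.30). The ephrin Efna1 and its receptor family member Epha4 were 1.76-fold and 1.7-fold higher. The semaphorin and VEGF co-receptor Nrp1 was at 13.5, 12.4 and 12 CPM in the deficient libraries, against 67.2, 67.6 and 66.3 CPM in the WT libraries, 5.3-fold lower (adjusted p = 5.27e-15).

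Immediate early genes, which respond within minutes to growth factors and stress, were higher in 18 of 24 and lower in 1, with a median of 0.60. Fos, a subunit of the factor AP-1, was at 8.87, 8.57 and 9.37 CPM in the deficient libraries, against 1.56, 1.81 and 1.78 CPM in the WT libraries. It was 5.18-fold higher (log2 fold change 2.37, SE 0.152, adjusted p = 5.56e-11). The stress factor Atf3 was 2.48-fold, the ERK phosphatase Dusp5 1.97-fold and Klf6 1.67-fold higher. The immediate early gene that fell, named after its value was seen, was Egr2, at 1.9 ± 0.401 CPM in deficient against 4.51 ± 0.538 in WT (log2 fold change -1.25, adjusted p = 4.66e-05). YAP and TEAD genes, which respond to cell shape and density, were higher in 13 of 24 and lower in 5 (median 0.25). The target genes Ctgf, F3, Cyr61 and Ankrd1 were 2.99-fold, 2.67-fold, 2.15-fold and 1.89-fold higher. Axl, also on this list, was among the 5 that fell.

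Cytokines, chemokines and genes of the NF-kB pathway, which carry inflammatory signals, were higher in 22 of 29 and lower in 3, beside 27.5% and 26.3% of all tested genes. Their median was 0.81. GM-CSF (Csf2, chromosome 11, 54247271 to 54249667, minus strand), a cytokine that feeds myeloid cells, was at 23.3, 21.7 and 20.7 CPM in the deficient libraries, against 2.84, 2.46 and 3.06 CPM in the WT libraries. It was 7.9-fold higher in deficient (log2 fold change 2.98, SE 0.114, adjusted p = 1.55e-14). Csf2 was at 3.67 ± 0.33 CPM in mimetic and 23.1 ± 1.85 CPM in vector cells, so deficient stood above mimetic (adjusted p = 7.31e-13), while the difference from vector was not called (log2 fold change -0.077, SE 0.091, adjusted p = 0.485). The NF-kB target and adaptor Traf1 was 2.35-fold, the inhibitor Tnfaip3 2-fold and cyclooxygenase 2 (Ptgs2) 1.93-fold higher.

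Interferon response genes were higher in 10 of 21 and lower in 3, with a median of 0.34 that was 0.05 without deficient replicate 1 and 0.14 without WT replicate 3. The exonuclease Isg20 was 1.79-fold higher and the membrane protein Ifitm3 2.43-fold lower. Antigen presentation genes were higher in 6 of 13 and lower in 1, with a median of 0.23 that was 0.13 without WT replicate 1 and 0.38 without WT replicate 2. The class I chain H2-K1 was 149 ± 4.29 CPM in deficient against 55.7 ± 3.23 in WT (2.68-fold higher), its peptide loader Tapbp 2.45-fold and the related H2-T23 2.43-fold higher. The gene that fell was B2m, the light chain of class I molecules, at 1.2-fold lower. Class I heavy chain genes resemble each other closely, so tags could be split between them and their separate values are uncertain.

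Genes of the cell cycle were lower in deficient, by small amounts. DNA replication genes were lower in 33 of 36 and higher in 1, with a median of -0.32, against 26.3% of all genes lower. The replicative helicase gene Mcm2 was at 271, 273 and 282 CPM in the deficient libraries, against 385, 379 and 377 CPM in the WT libraries. It was 1.38-fold lower (log2 fold change -0.47, SE 0.039, adjusted p = 4.14e-09). Mcm4, Mcm5 and Mcm6, further subunits of the ring, were 1.37-fold, 1.34-fold and 1.38-fold lower. The gene that rose, named after its value was seen, was thymidylate synthase (Tyms), at 1.15-fold (adjusted p = 0.00184). Against mimetic, 28 of the 36 were lower in deficient and 0 higher, and against vector 13 were lower and 11 higher.

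Mitosis genes were lower in 21 of 35 and higher in 1, with a median of -0.17. The kinesin Kif20a, which acts in cell division, was 113 ± 2.98 CPM in deficient against 171 ± 1.17 in WT (1.52-fold lower), the kinase Aurkb was 1.43-fold and the proliferation marker Mki67 1.29-fold lower. The gene that rose was Ect2, which acts in cytokinesis, at 1.22-fold (named after its value was seen). Genes of the p53 response and CDK inhibitors were split, 9 higher and 7 lower of 23. Cdkn1a, which halts the cycle as p21, was 20.1 ± 1.04 CPM in deficient against 8.74 ± 0.3 in WT (2.3-fold higher), and the Rb relative Rbl1 was 1.42-fold lower. Ribosomal protein genes fell in 65 of 82 and rose in 2, with a median of -0.30, and many have near-identical copies that make their separate counts uncertain.

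Sterol synthesis and uptake genes were higher in 17 of 26 and lower in 1 (median 0.23). Fdft1, the squalene synthase, was 83.6 ± 4.55 CPM in deficient against 48.1 ± 0.736 in WT (1.74-fold higher), the sterol isomerase Ebp 1.85-fold and the demethylase Cyp51 1.41-fold higher. Ebp lies on the part of chromosome X described below. Against mimetic, 22 of 26 were higher and 0 lower in deficient, and against vector 5 were higher and 13 lower. Fatty acid synthesis genes showed no common direction, with 3 higher and 6 lower of 18.

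Hypoxia and glycolysis genes were higher in 17 of 34 and lower in 5 (median 0.22), and against mimetic 25 were higher and 2 lower. The carbonic anhydrase Car12 was 6.95 ± 0.373 CPM in deficient against 0.624 ± 0.0794 in WT (11.2-fold higher), the lactate transporter Slc16a3 119.7 ± 3.99 CPM in deficient against 69.5 ± 0.642 in WT (1.72-fold) and the angiogenic factor Vegfa 210.4 ± 3.1 CPM in deficient against 135 ± 2.43 in WT (1.55-fold). Egln3, an oxygen sensor that hypoxia itself induces, went the other way at 16.2 ± 0.609 CPM in deficient against 32.5 ± 1.59 in WT (2.01-fold lower).

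Genes of the unfolded protein and integrated stress responses were higher in 16 of 32 and lower in 4 (median 0.12). The phosphatase subunit Ppp1r15a, which ends the integrated stress response, was 143 ± 4 CPM in deficient against 63 ± 1.84 in WT (2.28-fold higher), the pseudokinase Trib3 2.25-fold and the cystine transporter Slc7a11 2.14-fold higher. Heat shock and chaperone genes were called higher in 0 of 20 and lower in 13 (median -0.20). The chaperonin subunit Tcp1 was 1.34-fold, Hspa8 1.24-fold and Hsp90ab1 1.2-fold lower. NRF2 and detoxification genes were lower in 17 of 36 and higher in 7 (median -0.14). Gclc, the rate-limiting enzyme of glutathione synthesis, was 109 ± 6.81 CPM in deficient against 205 ± 5.26 in WT (1.87-fold lower), the transferase Gstm1 1.59-fold and the pentose phosphate enzyme G6pdx 1.5-fold lower. Slc7a11 is a member of this list as well and rose.

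**Figure D3:**
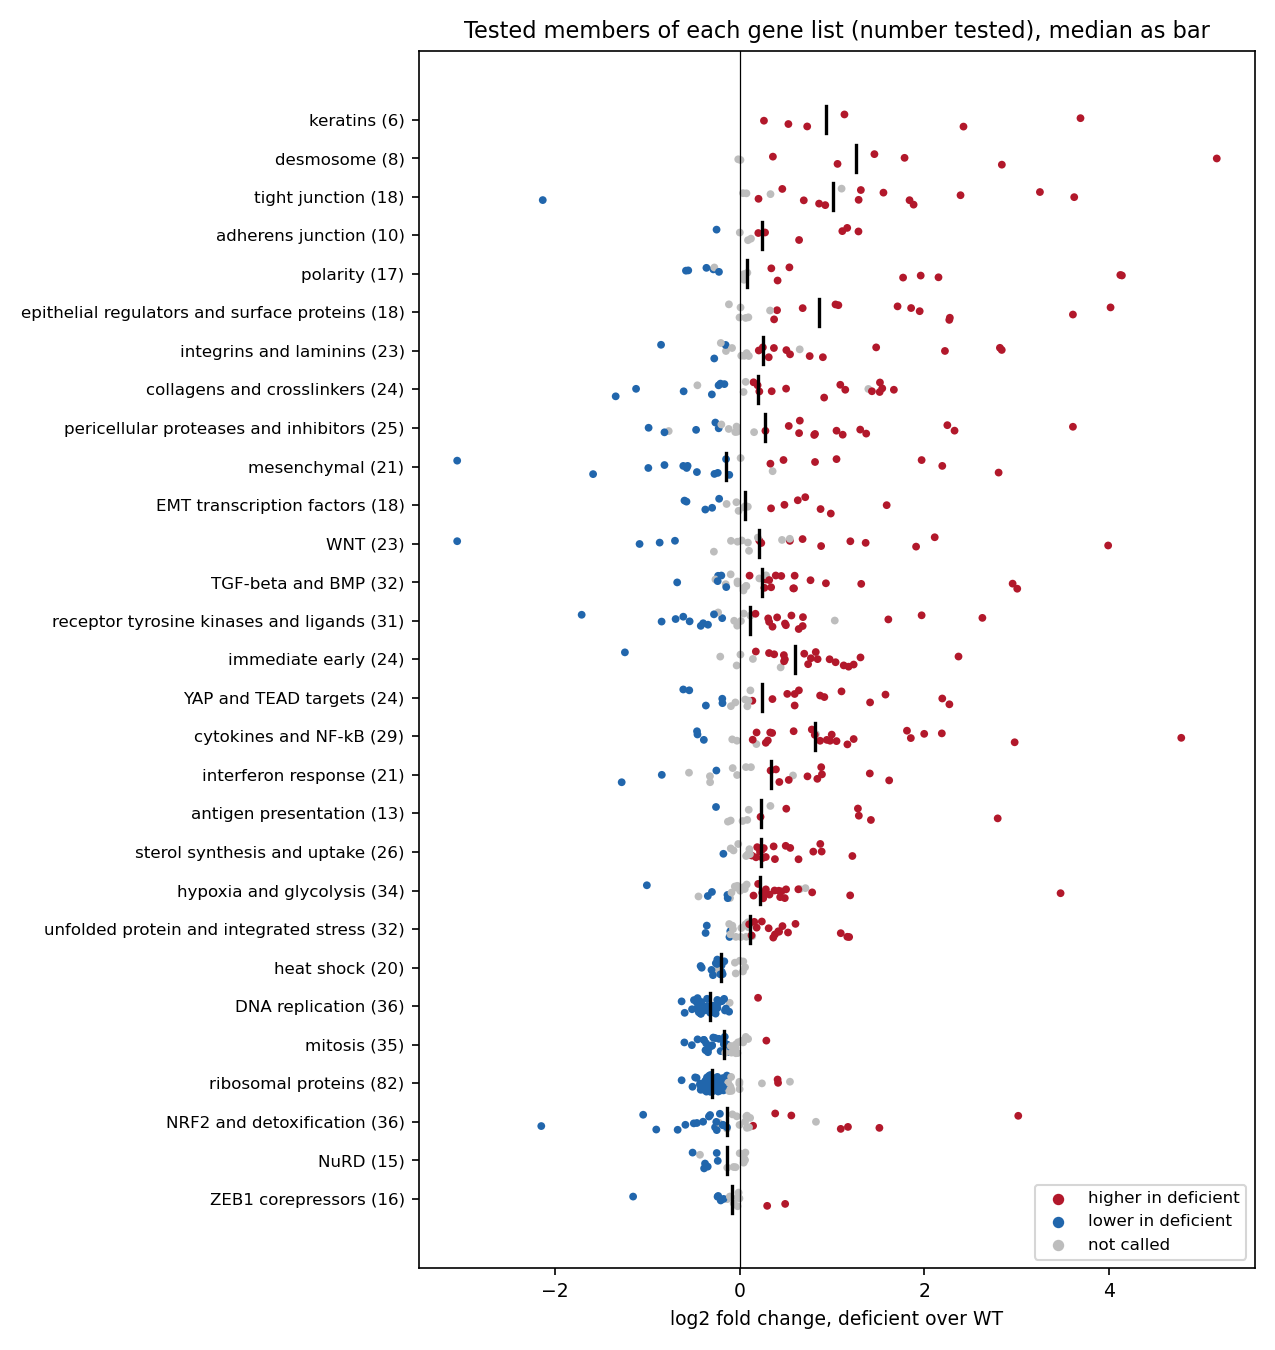
Each point is a tested member of a gene list, placed by its log2 fold change of deficient over WT (x axis) and coloured by whether it was called higher (red), called lower (blue) or not called (grey). Black bars mark list medians, such as 1.26 for desmosome genes and -0.32 for DNA replication genes.

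Actin and contractility genes were higher in 10 of 36 and lower in 18 (median -0.10), beside 27.5% and 26.3% of all tested genes. The non-muscle myosin Myh14 was at 35.9, 35.7 and 45 CPM in the deficient libraries, against 3.36, 3.45 and 3.1 CPM in the WT libraries. It was 11.7-fold higher (log2 fold change 3.55, SE 0.113, adjusted p = 8.89e-16). The actin crosslinker Flna was 1.12-fold lower. S100 proteins and annexins were higher in 10 of 19 and lower in 3 (median 0.23). S100a16 was 106 ± 2.47 CPM in deficient against 32 ± 1.27 in WT (3.32-fold higher), and the membrane-binding annexin Anxa6 140.2 ± 4.66 CPM in deficient against 363 ± 6.25 in WT (2.59-fold lower).

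Genes of a gut-like epithelium, which 393P vector cells express, were higher in 6 of 12 tested, out of 26 listed, and lower in 4. Against mimetic, 0 were higher in deficient and 7 lower, and against vector 1 was higher and 8 were lower. Lgals4, a galectin of gut epithelium, was at 26.8, 22.4 and 23 CPM in the deficient libraries, against 1.32, 1.5 and 1.6 CPM in the WT libraries. It was 16.3-fold higher (log2 fold change 4.03, SE 0.11, adjusted p = 8.65e-17), yet far from the 135 ± 7.01 CPM of vector cells. Hnf4a, a transcription factor of gut and liver, had 25.8 ± 2.1 CPM in deficient, 31.2 ± 0.0525 CPM in mimetic, 4.19 ± 0.27 CPM in WT and 174 ± 5.62 CPM in vector cells. Hnf4a in deficient was thus 6.12-fold above WT and 6.77-fold below vector. Among those that fell, Fabp5, a fatty acid binding protein, was 30.7 ± 1.14 CPM in deficient against 38.7 ± 2.16 in WT (1.26-fold lower). Of 11 tested lung lineage genes, out of 27 listed, 2 were higher, 1 lower and 8 not called. The water channel Aqp5, a marker of lung epithelium, was 44.6 ± 1.38 CPM in deficient against 34.1 ± 2.89 in WT (1.31-fold higher), and the forkhead factor Foxa2, the member that fell, 64.7 ± 9.33 CPM in deficient against 86.2 ± 4.06 in WT (1.33-fold lower).

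By size alone, the 15 largest rises among genes whose higher line averaged 10 CPM or more and whose libraries did not overlap, gene models with clone names left out, were in Klhl1, Dsp, Prkcz, Lgals4, Fgfbp1, Wnt7a, Vcan, Krt7, Epb41l4b, Tspan1, Sprr1a, Myh14, Slc44a4, Igf2r and Arhgap40, from 36.9-fold down to 9.28-fold. Klhl1, a kelch protein better known from neurons, was at 15.1, 14.4 and 11.7 CPM in the deficient libraries, against 0.381, 0.34 and 0.392 CPM in the WT libraries. Fgfbp1, which releases stored fibroblast growth factors, was 13.9 ± 0.696 CPM in deficient against 0.854 ± 0.175 in WT (16.1-fold). The matrix proteoglycan Vcan was 20.1 ± 1.22 CPM in deficient against 1.28 ± 0.368 in WT (15.6-fold) and the cornified envelope protein Sprr1a 20.7 ± 0.925 CPM in deficient against 1.74 ± 0.0906 in WT (11.9-fold). Igf2r, the receptor that clears IGF2, was at 85, 81.6 and 84.4 CPM in the deficient libraries, against 8.88, 9.73 and 8.22 CPM in the WT libraries. In mimetic and vector cells Igf2r stood at 114 ± 0.996 and 95.7 ± 3.55 CPM, so the WT line was the low one of the 4.

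The 15 largest falls were in Mdga1, Mctp1, Rab6b, Spn, Wnt5a, Clca3a1, Lrrk2, Nrp1, Thrb, Csgalnact1, Anpep, Dab2, Krt13, Plcb1 and Arhgap31, from 17.8-fold down to 3.39-fold. Mdga1, an adhesion molecule of neurons, was at 0.633, 0.621 and 0.866 CPM in the deficient libraries, against 12.5, 11.2 and 14.2 CPM in the WT libraries. Mctp1, a calcium-binding membrane protein, was at 7.99, 9.44 and 7.57 CPM in the deficient libraries, against 95.7, 90.5 and 88 CPM in the WT libraries. It was 11-fold lower (log2 fold change -3.45, SE 0.083, adjusted p = 8.31e-18), with 15.5 ± 0.318 CPM in mimetic and 20 ± 1.55 CPM in vector cells, which makes WT the high line of the 4. The Golgi GTPase Rab6b was 3.84 ± 0.977 CPM in deficient against 39.9 ± 1.37 in WT, and the calcium-activated chloride channel regulator Clca3a1 18.6 ± 1.31 CPM in deficient against 113 ± 4.12 in WT. The endocytic adaptor Dab2, also an inhibitor of several signalling pathways, was 6.8 ± 0.409 CPM in deficient against 28.6 ± 1.94 in WT (4.21-fold lower). The aminopeptidase Anpep was 3.99 ± 0.348 CPM in deficient against 17.4 ± 1.32 in WT, and 0.144 ± 0.0204 CPM in vector cells. The keratin Krt13, which was not in the keratin list, was 3.01 ± 0.323 CPM in deficient against 12.1 ± 1.36 in WT (4.04-fold lower), against the direction of the other keratins named.

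RNA composition differed between the lines too. Gene models that contain satellite repeats, of which 5 were in the table, took 0.934, 0.574 and 1.65% of counts in the deficient libraries, against 0.0312, 0.00626 and 0.0128% in the WT libraries. The mean share was thus 62.9 times higher in deficient, or 45 times without deficient replicate 3 and 111 times without WT replicate 1, with libraries of a line spread over several fold (1.05% ± 0.55 in deficient against 0.0168% ± 0.0129 in WT, SD, n = 3 each). An exact two-sided permutation test gave p = 0.1, the smallest that 3 against 3 libraries allow. Vector libraries had 0.41 to 0.603% and mimetic libraries 0.00223 to 0.00955%. The largest of these models, Gm10800, was at 7851, 4783 and 13730 CPM in the deficient libraries, against 266, 51.4 and 109 CPM in the WT libraries. Its log2 fold change of 5.96 (adjusted p = 8.92e-09) became 6.77 without WT replicate 1, the highest of the WT libraries. Without deficient replicate 3, the highest library, the difference in share was 0.737 percentage points in place of 1.04. What part these repeats play in the other differences was not tested. Without the satellite and mitochondrial genes, 6475 genes were called.

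Mitochondrially encoded genes took 0.707% ± 0.0129 of counts in deficient and 0.412% ± 0.015 in WT (exact two-sided permutation test, p = 0.1, the smallest possible). Of 12 such genes, 8 were higher and 0 lower. The cytochrome oxidase subunit mt-Co1 was at 5117, 5111 and 5097 CPM in the deficient libraries, against 2738, 2830 and 2961 CPM in the WT libraries, 1.8-fold higher. Cytosolic ribosomal proteins took 6.53% ± 0.196 in deficient and 7.71% ± 0.0375 in WT (p = 0.1 in the same exact permutation test). Vector libraries lay on the deficient side of WT in all 3 shares, with 0.814 to 0.998% mitochondrial and 5.52 to 6.13% ribosomal protein counts.

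**Figure D4:**
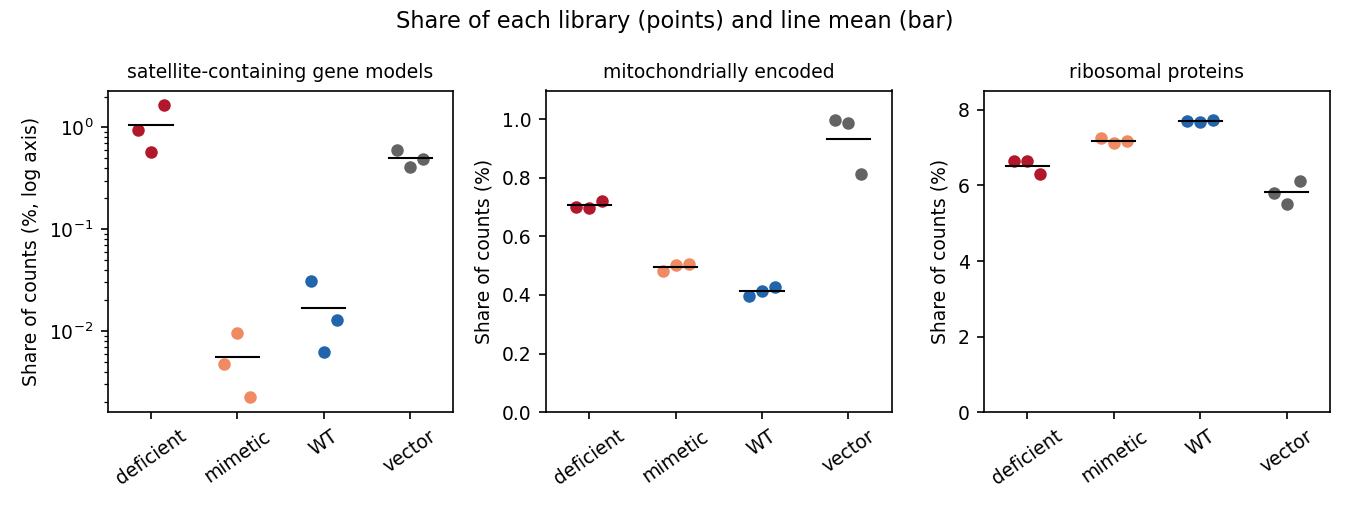
Share of counts in each library (y axis, %, a log axis for the satellite panel) for 3 groups of genes, with a bar at the mean of each line. The 3 deficient points do not overlap the 3 WT points in any of the panels.

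Genes were not shifted evenly over the genome. The median log2 fold change of deficient over WT was 0.28 over the 389 tested genes of chromosome 14, where 58.9% were higher and 7.71% lower, and 0.24 over the 590 genes of chromosome 3 (55.6% higher, 10.7% lower). It was 0.15 on chromosome 1 and 0.14 on chromosome 5, and lowest on chromosome 8, at -0.12. Mimetic over WT gave medians of 0.28, 0.24, 0.13, 0.16 and -0.15 on chromosomes 14, 3, 1, 5 and 8. These medians against WT were thus not particular to deficient. Deficient over vector gave 0.04 on chromosome 3, -0.05 on chromosomes 1 and 8, and 0.27 on chromosome 5. Many genes named above lie on these chromosomes. On chromosome 14 they include Klhl1, Klf5, Loxl2, Mmp14 and Fdft1 among those that rose and Wnt5a and Thrb among those that fell, and on chromosome 3 Cgn, S100a16, Sprr1a, F3, Cyr61, Skil and Slc7a11 among those that rose and S100a4 and Clca3a1 among those that fell. Lamb3, F11r, Pkp1, Ptgs2, Ddr2, Epha4 and Atf3, which rose, lie on chromosome 1. The part that these chromosome-wide medians play in the single genes was not tested. Along chromosome 14, the medians against WT were 0.24, 0.18, 0.22 and 0.43 in successive stretches of 20 Mb from 0 to 80 Mb, and 0.46 from 100 to 120 Mb. Against vector, deficient stood at 0.36, 0.33, 0.30, -0.07 and -0.05 in the same stretches, and at 0.18 over the whole chromosome.

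Chromosome X showed the sharpest step. Over its first 30 Mb, a range chosen after seeing the values, the median was 0.82 over 62 genes, of which 54 were higher (87.1%, beside 27.5% of all tested genes), 17 of them at least 2-fold, and 1 was lower. Over the remaining 277 genes of chromosome X the median was -0.17, with 31 higher and 124 lower. The step was abrupt, since the median was 0.88 between 20 and 30 Mb and -0.10 between 30 and 40 Mb. Against the WT mean, the median of the first 30 Mb was 0.83, 0.78 and 0.78 in the deficient libraries, 0.74, 0.75 and 0.78 in the mimetic libraries and 0.77, 0.78 and 0.82 in the vector libraries, so the WT line was the low one. The deficient line itself differed from vector by a median of 0.04 in this stretch. Uba1, the enzyme that activates ubiquitin, was 550.5 ± 6.85 CPM in deficient against 335 ± 2.49 in WT, and Usp9x, a deubiquitinase, 420 ± 12.4 CPM in deficient against 246 ± 8.28 in WT. Both lie there and were chosen as examples after their values were seen. Hdac6, Suv39h1, Kdm6a, Ebp and Timp1, given above with their lists, lie in the same stretch and rose between 1.5-fold and 2.11-fold. Rbbp7, Amot, Flna and G6pdx, which fell, lie on the rest of the chromosome. DNA was not measured, and what part the step plays in these genes was not tested.

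**Figure D5:**
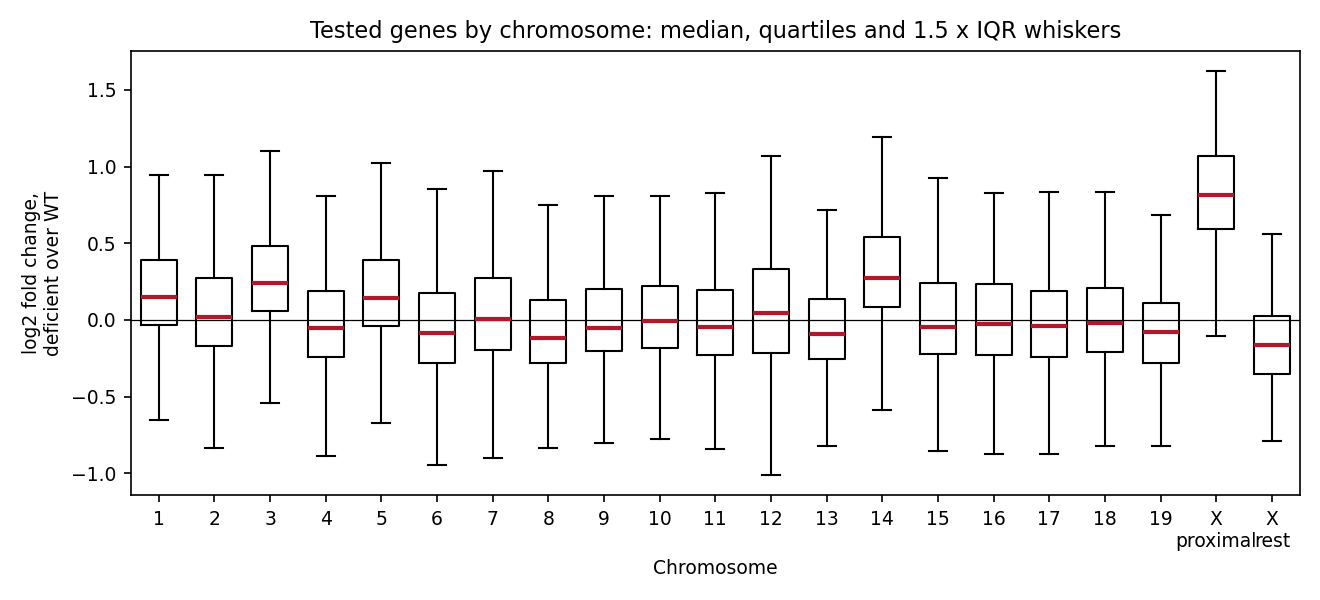
Box plots of the log2 fold change of deficient over WT (y axis) for the tested genes of each chromosome, with the median in red, quartiles as the box and whiskers at 1.5 times the interquartile range. Chromosome X is drawn as its first 30 Mb (proximal, median 0.82) and the rest (median -0.17), and chromosomes 14 and 3 have the highest medians of the autosomes, 0.28 and 0.24.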

How the data were processed

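The deposited file is a table of raw counts per gene for 12 libraries, in which the authors' counts are whole numbers that were not normalized. The submitters' processing notes name STAR and the build mm10. Not given in the sources used here are versions, the counting tool, the annotation and the counting strand, so overlapping, antisense and near-identical genes have uncertain counts. The table holds genes with at least 1 count in every library, and genes at 0 in any library were not analysed here.

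All 12 libraries were fitted together in edgeR 4.0.16 (R 4.3.3) with 1 coefficient per line and 8 residual degrees of freedom, after filterByExpr, which kept 12027 of 12208 genes, and TMM scaling. Differences were tested with the quasi-likelihood test and adjusted over all tested genes by the Benjamini-Hochberg method at 0.05. Each SE equals the absolute log2 fold change over √F. CPM values use TMM-scaled library sizes, and errors are SDs over 3 libraries. Depth was 24356697 to 39029599 counts per library, and 3 counts, taken as the floor, equal about 0.09 CPM. Shares of counts were compared with exact two-sided permutation tests.

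On simulated data for deficient against WT (11977 genes), the procedure called 93.9% of 49 tested genes raised 2-fold, 82% of 50 raised 1.5-fold, 52% of 50 raised 1.25-fold, 86% of 50 lowered to 0.5-fold and 0.093% of unchanged genes. Far fewer genes were changed there than the 6470 called in the data, and each count was drawn independently. The adjusted p depends on the share of changed genes, so these rates do not carry over to the calls above.

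Replicate numbers were checked as pairs. Deviations of same-numbered deficient and WT libraries from their line means correlated at -0.07, 0 and -0.02, so the numbers were not treated as pairs.

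Gene lists and comparisons were chosen with earlier results of these data known. Named genes are Zeb1, Cdh1, Vim and Crb3, up to 4 tested members per list with the smallest adjusted p, up to 2 with the highest mean CPM, and the 15 largest changes in each direction under the limits given with them. Genes outside this rule are marked where they appear. Gene coordinates came from GENCODE M21, which held 12195 of the table's gene identifiers, 11959 under the same symbol. Alternatives were DESeq2 1.42.0, limma-voom (limma 3.58.1), other scalings, filters and prior counts, a fit of the 6 libraries, a replicate block and leaving out each library. Some results are not reported here.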

Additional observations from a re-analysis of the deposited data

How the results depend on the processing

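Against 6470 calls in all, the total was 6461 to 6512 with RLE scaling, no filter, DESeq2 or limma-voom, 6390 with library size only (3597 higher and 2793 lower), 6719 in a fit of the 6 libraries alone, and 5794 to 6097 when each library was left out in turn. The replicate block, whose numbers do not pair the libraries, gave 6573 calls, 3357 higher and 3216 lower, with 870 at least 2-fold higher and 181 at least 2-fold lower, and changed no call of a gene named in the text. With genes limited to at least 5 CPM in 3 libraries, 392 of 9945 tested genes were at least 2-fold higher and 92 at least 2-fold lower. The main fit gave 875 and 181 of 12027. This limit thus removed a larger part of the 2-fold changes than of the tested genes. Leaving out each library gave 790 to 866 and 163 to 185. Genes named in the text kept their direction and their call under each alternative that tested them, except Krt80, whose call was lost under 8 of them. Some small list counts moved by over 1.5 times. Without deficient replicate 1, 2 WNT genes and 2 gut-like genes were lower in place of 4 each. Without deficient replicate 2, 3 fatty acid genes were lower in place of 6. Without deficient replicate 3, 2 immediate early genes and 2 sterol genes were lower in place of 1 each, and no sterol gene was lower without deficient replicate 1 or 2 or WT replicate 2 or 3. The median of the first 30 Mb of chromosome X was 0.8 with RLE scaling, 0.84 with library size only and 0.85 at 5 CPM, alternatives chosen after seeing the data. The cause of these shifts was not tested. Differences in share ranged from 0.287 to 0.302 points for mitochondrial genes, from -1.24 to -1.07 for ribosomal protein genes and from 0.737 to 1.28 for satellite models when a library was left out. Each form was 1 line, genes at low counts carry wide errors, and groups of 3 libraries were not tested for outliers.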
